A study of Saccharomyces cerevisiae with 14 samples.

Results

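The genes described here are those compared between rpd3 deletion cells and wild-type cells in quiescence, the resting state that budding yeast enters after its carbon source is used up. Both strains are Saccharomyces cerevisiae W303, and the deletion strain lacks RPD3 while the wild type carries it. A gene was taken up when it had a value in both Q columns and reached 1 FPKM in either of them. FPKM counts fragments per kilobase of gene, and its values here were rescaled by spike-in RNA to the amount per cell. The limit held for 6298 of 6598 uniquely named genes. Of the other genes, 147 had no value in a Q column and 153 stayed under 1 FPKM in both. Just inside the limit were HXT16 at 1.01 FPKM and VEL1 at 1.01 FPKM in rpd3 Q cells, and just outside were YHL002C-A at 0.999 FPKM and YMR030W-A at 0.97 FPKM. Of the 6298 genes, 3731 reached 1 FPKM in both columns, 2553 in rpd3 Q cells only and 14 in wild-type Q cells only.

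RNA was measured by strand-specific sequencing of 14 libraries from 6 conditions, rpd3 deletion and wild type each as log cells, DS cells and Q cells. Log cells were growing, DS cells were taken 2 hours after glucose was exhausted, and Q cells were the dense fraction that a Percoll gradient separates from 7-day cultures. Each Q condition had 2 isolates with 1 equivalent of ERCC spike-in RNA, and so had the other conditions except wild-type log, which had 4 libraries, 2 of them with 0.2 equivalents, pooled in a way that no source used here gives. In the deposited table there is 1 value per condition, on a scale that the authors tied to RNA content per cell through the spike-ins. That table does not give the isolates separately, so no value below has an SD over replicates or a test. The read depth is unknown, and "higher" and "lower" describe single pooled values.

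Rpd3 is a histone deacetylase. It takes acetyl groups off histone tails, mostly at promoters, as the catalytic subunit of the complexes Rpd3L and Rpd3S, and DNA-binding repressors such as Ume6 bring Rpd3L to particular genes. Cells entering quiescence shut down most transcription and condense their chromatin, and loss of histone acetylation is part of that shut-down.

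RPD3 itself stood at 0.0279 FPKM in rpd3 Q cells, the lowest value of that column among the genes compared, against 2.35 FPKM in wild-type Q cells. It stood at 0.941 FPKM in rpd3 DS cells, against 37.7 FPKM in wild-type DS cells, and in log cells it had no value in the mutant, against 70.8 FPKM in wild type. These values fit the labelled genotypes. Its annotated neighbours AAD14 and PEX6 were at 7.87 and 12.7 FPKM in rpd3 Q cells, against 0.816 and 0.600 FPKM in wild-type Q cells, so the loss of signal did not extend to them.

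Both cell populations carried much RNA of SPG1 and SPG4, which mark stationary phase. SPG1, a gene needed for survival in stationary phase, stood at 2110.0 FPKM in rpd3 Q cells and 1487 FPKM in wild-type Q cells, and was sixth in each column. In log cells the same gene stood at 11.1 FPKM in rpd3 and 3.57 FPKM in wild type. SPG4, of the same group, stood at 1820.4 FPKM in rpd3 Q cells and 706 FPKM in wild-type Q cells, while both log columns were under 3 FPKM. Not all of the 17 stationary-phase genes described below rose in this way. In wild type RGI1, SNO1, SNZ2, SNZ3 and SPI1 were lower in Q cells than in log cells, and the others higher. RGI1 went from 46.0 FPKM in log cells to 0.0726 FPKM in Q cells of wild type, and from 18.0 to 8.31 FPKM in rpd3.

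Nearly the whole transcriptome was more abundant per cell in rpd3 Q cells. The median gene stood at 19.4 FPKM in rpd3 Q cells, against 1.46 FPKM in wild-type Q cells. The median change, the deposited log2 value of rpd3 Q cells minus that of wild-type Q cells, was 3.73, or 13.3-fold, with quartiles of 2.71 and 4.75. At least 2-fold higher values were found for 6122 genes (97.2% of those compared), at least 16-fold higher values for 2672 genes (42.4%), and at least 2-fold lower values for 27 genes (0.429%). A further group of genes was slightly lower, bringing the number lower by any amount to 64.

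Part of these counts follows from how genes were taken up: a gene under 1 FPKM in wild-type Q cells could enter only by being higher in the mutant. Among the 3731 genes at or above 1 FPKM in both columns, the median change was 3.001, 3572 genes passed 2-fold upward and 15 downward. Among the 718 genes at or above 10 FPKM in both columns it was 2.07, with 609 genes past 2-fold upward and 6 downward. Higher values thus prevailed in each of these sets. The limits are set on the same Q values that form the change, so the sizes of the 3 medians are not a result about abundance.

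The spread of levels among the genes compared also differed. In rpd3 Q cells 14 genes (0.222%) were under 1 FPKM, against 2553 genes (40.5%) in wild-type Q cells. These counts restate which column let a gene enter, and the 153 genes under 1 FPKM in both columns are in neither. The SD of the log2 levels over genes was 1.55 in rpd3 Q cells and 2.27 in wild-type Q cells. Both SDs rest on the same limit, which cut low values mostly from the mutant column, so they are a description only. The FPKM values summed to 304971 in rpd3 Q cells and 54341 in wild-type Q cells, a ratio of 5.61, which is 2.49 on the log2 scale and below the median change. The 100 most abundant genes held 34.7% of the sum in rpd3 Q cells and 55.7% in wild-type Q cells. The wild-type pool was therefore concentrated in fewer genes.

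**Figure D1:**
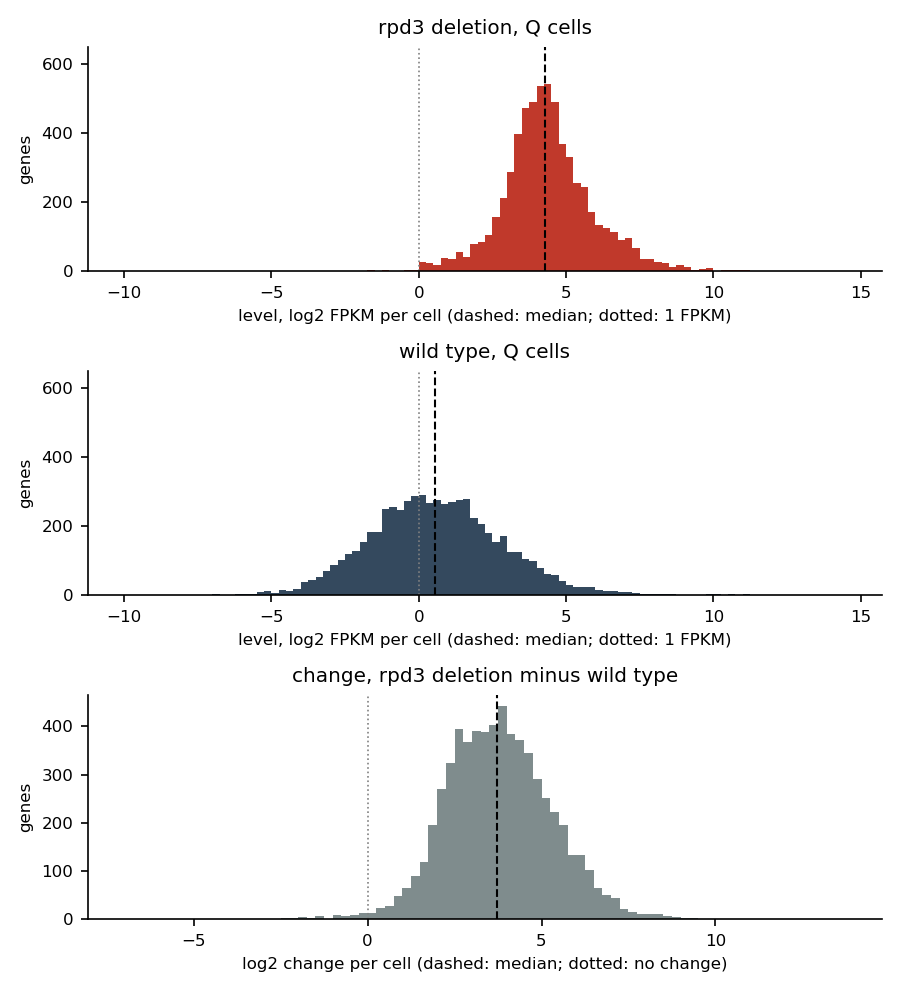
Histograms over the 6298 genes of the log2 level per cell in rpd3 Q cells (top) and wild-type Q cells (middle), and of the log2 change between them (bottom). Genes under 1 FPKM in both columns are left out, which bears on the shape of the peaks. The mutant levels form a narrow peak with its median at 19.4 FPKM, the wild-type levels a broad one with its median at 1.46 FPKM, and the change has its median at 3.73 with few genes under 0.

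The difference between the genotypes was far smaller before quiescence. Over the 6279 of these genes with values in both log columns, the median change was 0.27, with 700 genes past 2-fold upward in the mutant and 232 downward. Over the 6189 with values in both DS columns it was 0.69, with 2109 higher and 237 lower. In levels, the median gene stood at 52.5, 35.6 and 19.4 FPKM in rpd3 log, DS and Q cells, against 40.2, 21.5 and 1.46 FPKM in wild-type log, DS and Q cells. Between DS and Q the mutant median thus dropped by a smaller factor than the wild-type median.

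Since a common shift of this size moves nearly every gene past 2-fold, each gene was also read relative to the median gene, as its change minus 3.73. On that reading 1601 genes lay at least 2-fold above the median gene (25.4%) and 1602 at least 2-fold below it (25.4%), and these shares are the background for every gene group below. Read relative to the ratio of the column sums instead, 3532 genes lay at least 2-fold above and 326 at least 2-fold below. A group whose median change lies between 2.49 and 3.73 is therefore below the median gene but above the change in total signal.

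Genes that earlier work in growing cells describes as repressed by Rpd3 were among the groups furthest above the median gene. All 9 were at least 2-fold higher per cell, their median change was 5.18, and 7 were at least 2-fold above the median gene, while 4 were under 1 FPKM in wild-type Q cells and so entered only through the mutant. INO1, the enzyme of inositol synthesis, stood at 264 FPKM in rpd3 Q cells and 3.76 FPKM in wild-type Q cells, a change of 6.13. CAR1, arginase, stood at 114 FPKM in rpd3 Q cells and 1.62 FPKM in wild-type Q cells, a change of 6.14. These genes had been higher in the mutant at the earlier harvests as well: INO1 by 3.57 in log cells and 5.21 in DS cells, CAR1 by 2.09 and 2.76, all on the log2 scale.

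PHO5, a secreted acid phosphatase, stood at 20.2 FPKM in rpd3 Q cells and 0.559 FPKM in wild-type Q cells. CAR2, ornithine transaminase, stood at 118 FPKM in rpd3 Q cells and 7.27 FPKM in wild-type Q cells. TRK2, a potassium transporter gene, stood at 43.8 FPKM in rpd3 Q cells and 5.22 FPKM in wild-type Q cells. TRK2 was the member of the group that lay below the median gene, with a change of 3.07.

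The other members of the group act in meiosis. SPO13, a regulator of the first meiotic division, stood at 8.21 FPKM in rpd3 Q cells and 0.0182 FPKM in wild-type Q cells, a change of 8.82. SPO11, which makes the double-strand breaks of meiotic recombination, stood at 7.56 FPKM in rpd3 Q cells and 0.116 FPKM in wild-type Q cells. HOP1, a protein of the meiotic chromosome axis, stood at 31.8 FPKM in rpd3 Q cells and 1.12 FPKM in wild-type Q cells. IME2, a kinase that starts meiosis, stood at 28.7 FPKM in rpd3 Q cells and 0.852 FPKM in wild-type Q cells. In rpd3 Q cells SPO13 and SPO11 were under the median gene of 19.4 FPKM and HOP1 and IME2 over it, and in wild-type Q cells all 4 were under the median gene of 1.46 FPKM.

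Of the wider group of 28 meiotic recombination and synapsis genes, 21 were under 1 FPKM in wild-type Q cells and could enter only through the mutant. Their median change of 5.05, with 17 at least 2-fold above the median gene and 1 as far below, is therefore given as a description. SAE3 and MEI5, which help load the meiotic recombinase, stood at 12.9 and 4.97 FPKM in rpd3 Q cells, against 0.0391 and 0.0124 FPKM in wild-type Q cells. With a pseudocount of 10 FPKM this group's median lay 0.10 below that of all genes. Spore wall genes, which act late in sporulation, lay on the other side: their 28 members had a median change of 2.86, 4 were at least 2-fold above the median gene and 13 at least 2-fold below. The 13 regulators of meiosis measured had a median change of 2.80.

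Many early meiotic promoters carry URS1, the site of Ume6, the repressor that recruits Rpd3L. The 500 bases before the start codon were read from RefSeq (R64, strain S288C, so W303 bases may differ), and the core GGCGGC was sought on both strands. It was present in 9.57% of 6000 promoters, in 5 of the 9 genes described as Rpd3-repressed and in 18 of the 28 meiotic recombination genes. The windows below show the core in its surroundings at 4 of the Rpd3-repressed genes and at 3 further meiotic genes, chosen after their values were seen. SPO16 and MER1, with changes of 8.15 and 7.67, carry it too, and so do CSM4 and REC104, with 3.24 and 3.42. RED1 and SPO11, with changes of 6.72 and 6.025, have no match. Capitals mark the match nearest the start codon, and every window is upstream sequence of the gene named, read on the gene's own strand.
SPO13: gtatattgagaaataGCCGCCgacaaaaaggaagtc
MEI5: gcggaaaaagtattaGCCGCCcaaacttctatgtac
SAE3: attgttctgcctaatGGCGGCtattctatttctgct
MEI4: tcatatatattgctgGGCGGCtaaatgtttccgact
HOP1: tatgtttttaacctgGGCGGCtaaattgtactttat
INO1: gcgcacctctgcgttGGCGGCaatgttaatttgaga
CAR1: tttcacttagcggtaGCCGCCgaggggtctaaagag
The capitals begin 95 bases before the start codon of SPO13 (chromosome VIII), 126 before MEI5 (XVI), 109 before SAE3 (VIII), 96 before MEI4 (V), 171 before HOP1 (IX), 146 before INO1 (X) and 155 before CAR1 (XVI).

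Within the meiotic recombination genes, the 18 with the core had a median change of 5.67 and the other 10 of 4.71. Within the Rpd3-repressed genes the 5 with the core had a median change of 6.13 and the other 4 of 4.60. SPO13, SPO11 and HOP1 are in both groups, so these splits are not separate cases. As 21 of the 28 meiotic genes entered only through the mutant, the splits are given as a description. Across all promoters the core made no such difference: 548 genes with it had a median change of 3.76 and 5217 without it of 3.73, and 26.5% of the genes with it were at least 2-fold above the median gene, against 25.5% of those without. In log cells the medians were 0.38 with the core and 0.27 without. A match to these letters is a description of the sequence and says nothing about binding.

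The genes for Rpd3's own partners were higher per cell, by about as much as other genes or less. Of 12 subunits of the Rpd3 complexes, the 11 other than RPD3 were at least 2-fold higher, and 1 was at least 2-fold above the median gene while 5, RPD3 included, were at least 2-fold below. SIN3, the scaffold of both complexes, stood at 29.8 FPKM in rpd3 Q cells and 3.20 FPKM in wild-type Q cells. SAP30, an Rpd3L subunit, had the largest change of the group at 6.09, with 14.2 FPKM in rpd3 Q cells and 0.208 FPKM in wild-type Q cells, and SDS3, also of Rpd3L, had the smallest of the 11 at 1.87, with 10.8 FPKM in rpd3 Q cells and 2.97 FPKM in wild-type Q cells.

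The 8 genes of DNA-binding and other factors that recruit Rpd3 had changes between 1.20 and 4.84. UME6 stood at 16.7 FPKM in rpd3 Q cells and 0.965 FPKM in wild-type Q cells, and ASH1, a repressor that acts in daughter cells, at 24.6 FPKM in rpd3 Q cells and 0.859 FPKM in wild-type Q cells. XBP1, a repressor of cell cycle genes that is made on starvation and known to work with Rpd3 in quiescence, had the smallest change of the group: 24.4 FPKM in rpd3 Q cells and 10.6 FPKM in wild-type Q cells. It was also the most abundant of the 8 in wild-type Q cells.

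The core of the Xbp1 site, CTCGAG, was the sequence whose presence went with the largest difference among 6 searched. It was present in 8.2% of promoters. The 460 genes with it had a median change of 4.35, against 3.69 for the 5305 genes without it, and 40% of them were at least 2-fold above the median gene, against 24.3% of those without. In log cells the medians were 0.29 with the site and 0.27 without, and in DS cells 0.81 with and 0.68 without. The difference lay in the wild-type column: the median level in rpd3 Q cells was 19.1 FPKM with the site and 20.0 FPKM without, and in wild-type Q cells 0.939 FPKM with the site and 1.56 FPKM without. With a wild-type median under 1 FPKM, many genes with the site entered only through the mutant, so the difference is given as a description. None of the 6 sequences was read with a pseudocount or among genes at 1 FPKM in both columns. No site was found at any of the 9 Rpd3-repressed genes.

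The difference was seen in each of 5 equal bins of the level in wild-type log cells, with medians between 3.87 and 4.78 with the site and between 3.49 and 3.81 without. Genes with a single site numbered 444, with a median change of 4.35, while the 16 with 2 or more had 3.72, so more sites did not go with a larger median in this small group. Among the genes with the 15 largest changes at 10 FPKM or more, of which YCL023C had no upstream window, SAE3, SCW4 and DOG2 carry the site. It is present in 8.2% of all promoters. These genes were picked by their changes and were under 1 FPKM in wild-type Q cells, so they are no support for the difference. Their windows are printed as examples only, with the site in capitals.
SAE3: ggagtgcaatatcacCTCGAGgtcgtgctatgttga
SCW4: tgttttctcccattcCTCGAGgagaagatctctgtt
DOG2: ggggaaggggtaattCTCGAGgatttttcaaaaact
The site begins 390 bases before the start codon of SAE3 (chromosome VIII), 225 before that of SCW4 (VII) and 176 before that of DOG2 (VIII). SCW4, a cell wall glucanase, stood at 74.9 FPKM in rpd3 Q cells and 0.233 FPKM in wild-type Q cells. DOG2, a sugar phosphatase, stood at 17.5 FPKM in rpd3 Q cells and 0.0550 FPKM in wild-type Q cells.

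**Figure D2:**
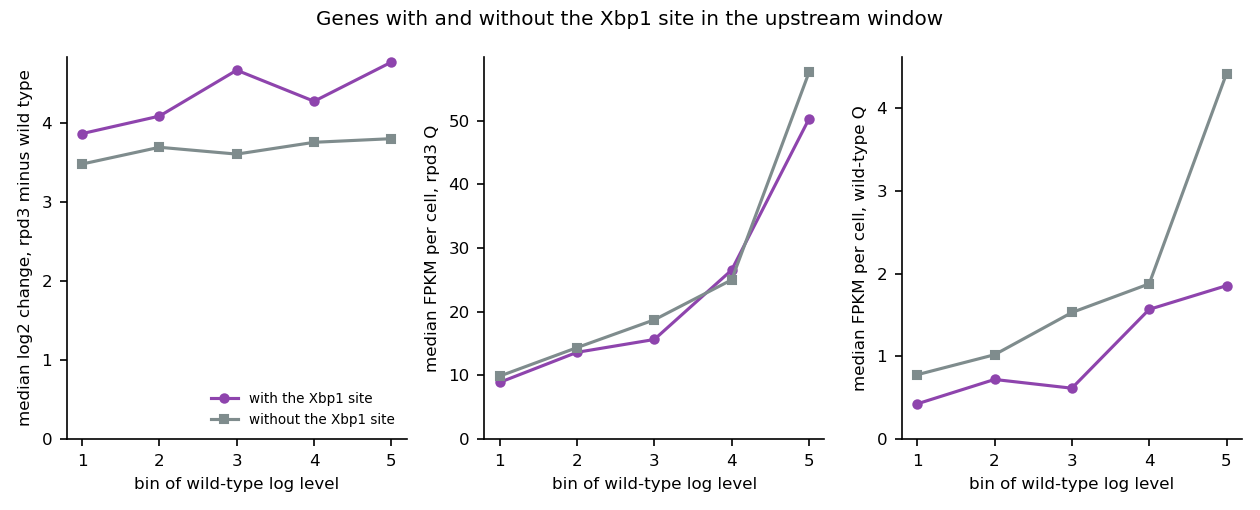
Median log2 change (left), median level in rpd3 Q cells (middle) and median level in wild-type Q cells (right), for genes with and without the Xbp1 site in the 500 bases before the start codon, in 5 bins of wild-type log level from low to high. The medians of the change are higher with the site in every bin, and the wild-type Q levels are lower with it in every bin, 0.426 against 0.778 FPKM in the lowest and 1.86 against 4.42 FPKM in the highest.

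The other 4 sequences went with smaller differences. Genes with the RRPE core AAAATTT, the site of Stb3 at growth genes, had a median change of 3.92, against 3.64 without it. For the PAC core GATGAG, bound by Dot6 and Tod6 at ribosome biogenesis genes, the medians were 3.90 with and 3.68 without. For the Rap1 core ACCCNNACA of ribosomal protein genes they were 4.01 with and 3.72 without. The stress element AGGGG, the site of the activators Msn2 and Msn4, went the other way, with 3.43 for genes with it and 3.88 for genes without. A promoter can hold several of these, so the classes overlap.

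Stationary-phase genes formed the group furthest below the median gene apart from the genes of the mitochondrial genome. Their median change was 1.36, that is 2.37 below the median gene, 14 of 17 were at least 2-fold below it and 1 at least 2-fold above. They kept this side with pseudocounts of 1 and 10 FPKM and among genes at 1 FPKM in both columns. The 17 genes held 2.58% of the summed FPKM in rpd3 Q cells, against 11.9% in wild-type Q cells. Their median level was 127 FPKM in rpd3 Q cells and 133 FPKM in wild-type Q cells, but these medians fall on different genes. Gene by gene, 9 of the 17 were at least 2-fold higher per cell in the mutant and 3 at least 2-fold lower.

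GRE1, SIP18 and HBT1 were at least 2-fold lower per cell in the mutant. GRE1, a hydrophilin made in dry or starved cells, stood at 489 FPKM in rpd3 Q cells and 1993 FPKM in wild-type Q cells, where it was the fourth most abundant gene. In DS cells the difference had been larger, with 71.7 FPKM in rpd3 and 2680.0 FPKM in wild type. SIP18, a related hydrophilin, stood at 352 FPKM in rpd3 Q cells and 1071 FPKM in wild-type Q cells, and at 1379.6 FPKM in rpd3 DS cells and 6195 FPKM in wild-type DS cells. HBT1, a partner of the ubiquitin-like protein Hub1, stood at 47.7 FPKM in rpd3 Q cells and 124 FPKM in wild-type Q cells. For each of the 3 the order was the same in DS cells, and in log cells each was higher in the mutant.

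Other members were more abundant per cell in the mutant, though by less than the median gene. SPG5, a proteasome-associated protein of stationary phase, stood at 1012.0 FPKM in rpd3 Q cells and 295 FPKM in wild-type Q cells. HXT5, a hexose transporter made in the absence of glucose, stood at 361 FPKM in rpd3 Q cells and 192 FPKM in wild-type Q cells. RGI2, a gene of respiratory growth, stood at 516 FPKM in rpd3 Q cells and 201 FPKM in wild-type Q cells. SPS100, a spore wall gene also induced in stationary phase, stood at 807 FPKM in rpd3 Q cells and 133 FPKM in wild-type Q cells, although in DS cells it had been at 16.9 FPKM in rpd3 and 223 FPKM in wild type. Over the 17 genes, 9 were lower in the mutant in DS cells and higher in Q cells, among them SPS100, SPG1, SPG4, HXT5, SPI1, SNZ2 and SNZ3, and SNZ1 was higher in DS cells and lower in Q cells.

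Among the rest of the group, SNZ1, an enzyme of vitamin B6 synthesis, stood at 88.3 FPKM in rpd3 Q cells and 133 FPKM in wild-type Q cells, and NQM1, a transaldolase, at 99.1 FPKM in rpd3 Q cells and 113 FPKM in wild-type Q cells. SPG3 stood at 14.5 FPKM in rpd3 Q cells and 11.4 FPKM in wild-type Q cells. SPI1, a cell wall protein, stood at 127 FPKM in rpd3 Q cells and 16.6 FPKM in wild-type Q cells. SNO1, the neighbour and partner of SNZ1, had a change of 3.63, and SNZ2 and SNZ3, near-identical copies whose reads the counting may have split, had changes of 2.70 and 2.55. RGI1 was the exception, with 8.31 FPKM in rpd3 Q cells and 0.0726 FPKM in wild-type Q cells, a change of 6.84.

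**Figure D3:**
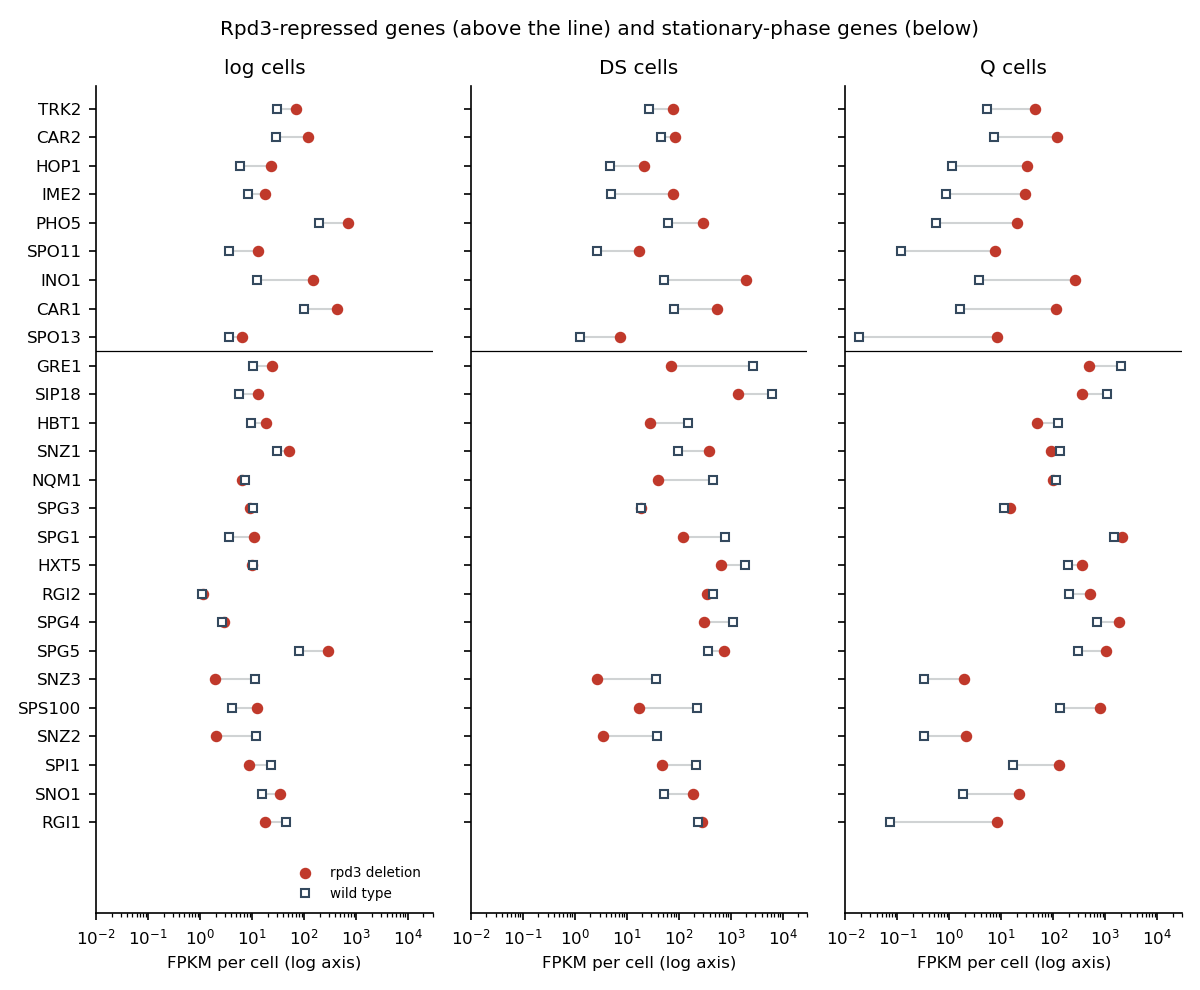
Levels per cell (FPKM, log axis) of the 9 Rpd3-repressed genes and the 17 stationary-phase genes in log, DS and Q cells, with rpd3 deletion as filled circles and wild type as open squares. The Rpd3-repressed genes lie higher in the mutant at every harvest and furthest apart in Q cells, while GRE1, SIP18 and HBT1 lie lower in the mutant in DS and Q cells.

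Genes of stress and heat shock had a median change of 2.79, with 6 of 40 at least 2-fold above the median gene and 19 at least 2-fold below. They held 2.84% of the summed FPKM in rpd3 Q cells and 9.70% in wild-type Q cells, of which GRE1 and SIP18, counted in the stationary-phase group as well, made up 0.276% in rpd3 Q cells and 5.64% in wild-type Q cells. HSP12, a small membrane-protecting protein, stood at 254 FPKM in rpd3 Q cells and 361 FPKM in wild-type Q cells, and CTT1, cytosolic catalase, at 8.67 FPKM in rpd3 Q cells and 21.7 FPKM in wild-type Q cells. Others went with the median gene or beyond it: TSA1, a peroxiredoxin, stood at 243 FPKM in rpd3 Q cells and 4.64 FPKM in wild-type Q cells. The 28 stress genes with the element AGGGG had a median change of 2.29 and the 12 without it of 3.81. With a pseudocount of 10 FPKM the whole group lay 0.56 above the median of all genes.

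Several groups that serve respiration and the use of stored carbon were higher per cell but mostly below the median gene. The 30 autophagy genes had a median change of 2.19, and 17 lay at least 2-fold below the median gene, while 0 lay as far above it. ATG8, the ubiquitin-like protein of the autophagosome, stood at 227 FPKM in rpd3 Q cells and 85.4 FPKM in wild-type Q cells. For the 18 genes of beta-oxidation the median change was 2.12, and 13 lay at least 2-fold below the median gene. CTA1, peroxisomal catalase, stood at 206 FPKM in rpd3 Q cells and 124 FPKM in wild-type Q cells. Gluconeogenesis and glyoxylate cycle genes had a median of 2.63, glycolysis and fermentation genes of 2.31, trehalose genes of 2.45 and nuclear genes of the respiratory chain and ATP synthase of 2.88. Of these groups only autophagy stayed below the median of all genes with a pseudocount of 10 FPKM. Glycogen genes were mixed. Their median lay 0.27 above the median gene and 8 of 14 were above it, but 2 were at least 2-fold above and 5 at least 2-fold below. Their median stayed above that of all genes under each setting.

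Citrate cycle genes spanned a wide range. CIT3, mitochondrial methylcitrate synthase, stood at 500 FPKM in rpd3 Q cells and 13.1 FPKM in wild-type Q cells, a change of 5.25. SDH2, a subunit of succinate dehydrogenase, stood at 148 FPKM in rpd3 Q cells and 140 FPKM in wild-type Q cells, and ACO1, aconitase, at 101 FPKM in rpd3 Q cells and 77.9 FPKM in wild-type Q cells. Of the 17 genes, 5 were at least 2-fold above the median gene and 5 at least 2-fold below, shares close to the 25.4% of all genes on each side.

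Histone genes were the group of the nuclear genome second furthest below the median gene. The 10 core histone, H2A.Z and linker histone genes had a median change of 2.05, and 8 were at least 2-fold below the median gene. HTA1 stood at 319 FPKM in rpd3 Q cells and 93.2 FPKM in wild-type Q cells, and HHF1 at 111 FPKM in rpd3 Q cells and 35.9 FPKM in wild-type Q cells. HTZ1, the variant H2A.Z, was near the median gene with a change of 3.80. With a pseudocount of 10 FPKM this group lay 0.31 above the median of all genes. Histone genes were also abundant, with a median level of 29.7 FPKM in wild-type Q cells. The 718 genes at 10 FPKM or more in both columns had a median change of 2.07. That class is set by the Q values, and no comparison at equal abundance was made.

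Cell cycle genes had large changes that go with how they entered. The 11 condensin and cohesin genes, which hold and fold chromosomes, were all under 1 FPKM in wild-type Q cells, so each could enter only through the mutant, and had a median change of 5.98. SMC2, a condensin ATPase, stood at 12.8 FPKM in rpd3 Q cells and 0.0728 FPKM in wild-type Q cells, and SMC3, of cohesin, at 20.2 FPKM in rpd3 Q cells and 0.180 FPKM in wild-type Q cells. The 30 genes expressed at the G1/S transition had a median change of 5.22, and 21 were at least 2-fold above the median gene. CLN3, the first G1 cyclin, stood at 26.5 FPKM in rpd3 Q cells and 0.280 FPKM in wild-type Q cells, and CDC45, a replication factor, at 9.27 FPKM in rpd3 Q cells and 0.0191 FPKM in wild-type Q cells.

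The 30 genes of G2/M and early G1 had a median of 4.90, and 18 were at least 2-fold above the median gene. CLB4, a mitotic cyclin, stood at 11.0 FPKM in rpd3 Q cells and 0.0331 FPKM in wild-type Q cells. SIC1, the inhibitor that keeps cells in G1, had a small change for the group at 1.91, with 46.3 FPKM in rpd3 Q cells and 12.3 FPKM in wild-type Q cells. These levels in the mutant were below that column's median of 19.4 FPKM for most members, and with a pseudocount of 10 FPKM the condensin and cohesin, G1/S and G2/M groups lay 0.08, 0.28 and 0.32 below the median of all genes. The G2/M group also lay 0.04 below it with a pseudocount of 1 FPKM. Under 1 FPKM in wild-type Q cells were 28 of the 30 G1/S genes and 23 of the 30 G2/M genes. Among genes at 1 FPKM in both columns, the 2 G1/S genes left lay 0.02 above the median of all genes and the 7 G2/M genes 0.15 below it, so the counts above do not place these groups apart from other genes.

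Genes for tRNA charging, the secretory pathway and RNA polymerase I were above the median gene under each setting. The 20 tRNA synthetase genes had a median change of 5.39, 14 were at least 2-fold above the median gene and 2 at least 2-fold below. KRS1, the lysine enzyme, stood at 86.2 FPKM in rpd3 Q cells and 0.630 FPKM in wild-type Q cells. Their median change had been -0.04 in log cells and 0.96 in DS cells. For the 40 genes of the secretory pathway the median was 4.74, and 20 lay at least 2-fold above the median gene while 4 lay as far below. OST3, a subunit of the enzyme that attaches sugars to new proteins, stood at 30.0 FPKM in rpd3 Q cells and 0.282 FPKM in wild-type Q cells, a change of 6.74. KAR2, the chaperone of the endoplasmic reticulum and the most abundant of these genes, lay below the median gene with a change of 3.29, at 413 FPKM in rpd3 Q cells and 42.3 FPKM in wild-type Q cells. The 7 genes specific to RNA polymerase I had a median of 4.74. In wild-type Q cells 9 of the 20 tRNA synthetase genes, 11 of the 40 secretory genes and 3 of the 7 polymerase genes were under 1 FPKM. These entered only through the mutant, KRS1 and OST3 among them. Among genes at 1 FPKM in both columns, the 3 groups lay 1.31, 1.41 and 1.32 above the median of all genes. Translation factors had a median of 3.44, below the median gene, but lay 0.63 above it with a pseudocount of 10 FPKM, and the 68 mitochondrial ribosomal protein genes had a median of 3.06, with 23 at least 2-fold below the median gene.

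Ribosome biogenesis genes had a median change of 4.43, with 25 of 69 at least 2-fold above the median gene and 1 at least 2-fold below. Of the 69, 28 were under 1 FPKM in wild-type Q cells and entered only through the mutant. Among genes at 1 FPKM in both columns the group lay 0.93 above the median of all genes. DBP2, an RNA helicase, stood at 148 FPKM in rpd3 Q cells and 3.06 FPKM in wild-type Q cells. The 76 ribosomal protein genes of the large subunit had a median of 3.99 and the 57 of the small subunit of 3.67, closer to the median gene. That order turned with a pseudocount of 10 FPKM, where the large and small subunit lay 1.59 and 1.56 above all genes and ribosome biogenesis 0.48 above. RPS22A stood at 147 FPKM in rpd3 Q cells and 2.02 FPKM in wild-type Q cells, and RPS30A at 414 FPKM in rpd3 Q cells and 144 FPKM in wild-type Q cells. Proteasome genes, with a median of 3.78, proton pumps, with 3.79, and splicing factors, with 3.73, were at the median gene. With a pseudocount of 10 FPKM the proteasome lay 1.22 and proton pumps 0.91 above all genes, and splicing factors 0.15 below.

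**Figure D4:**
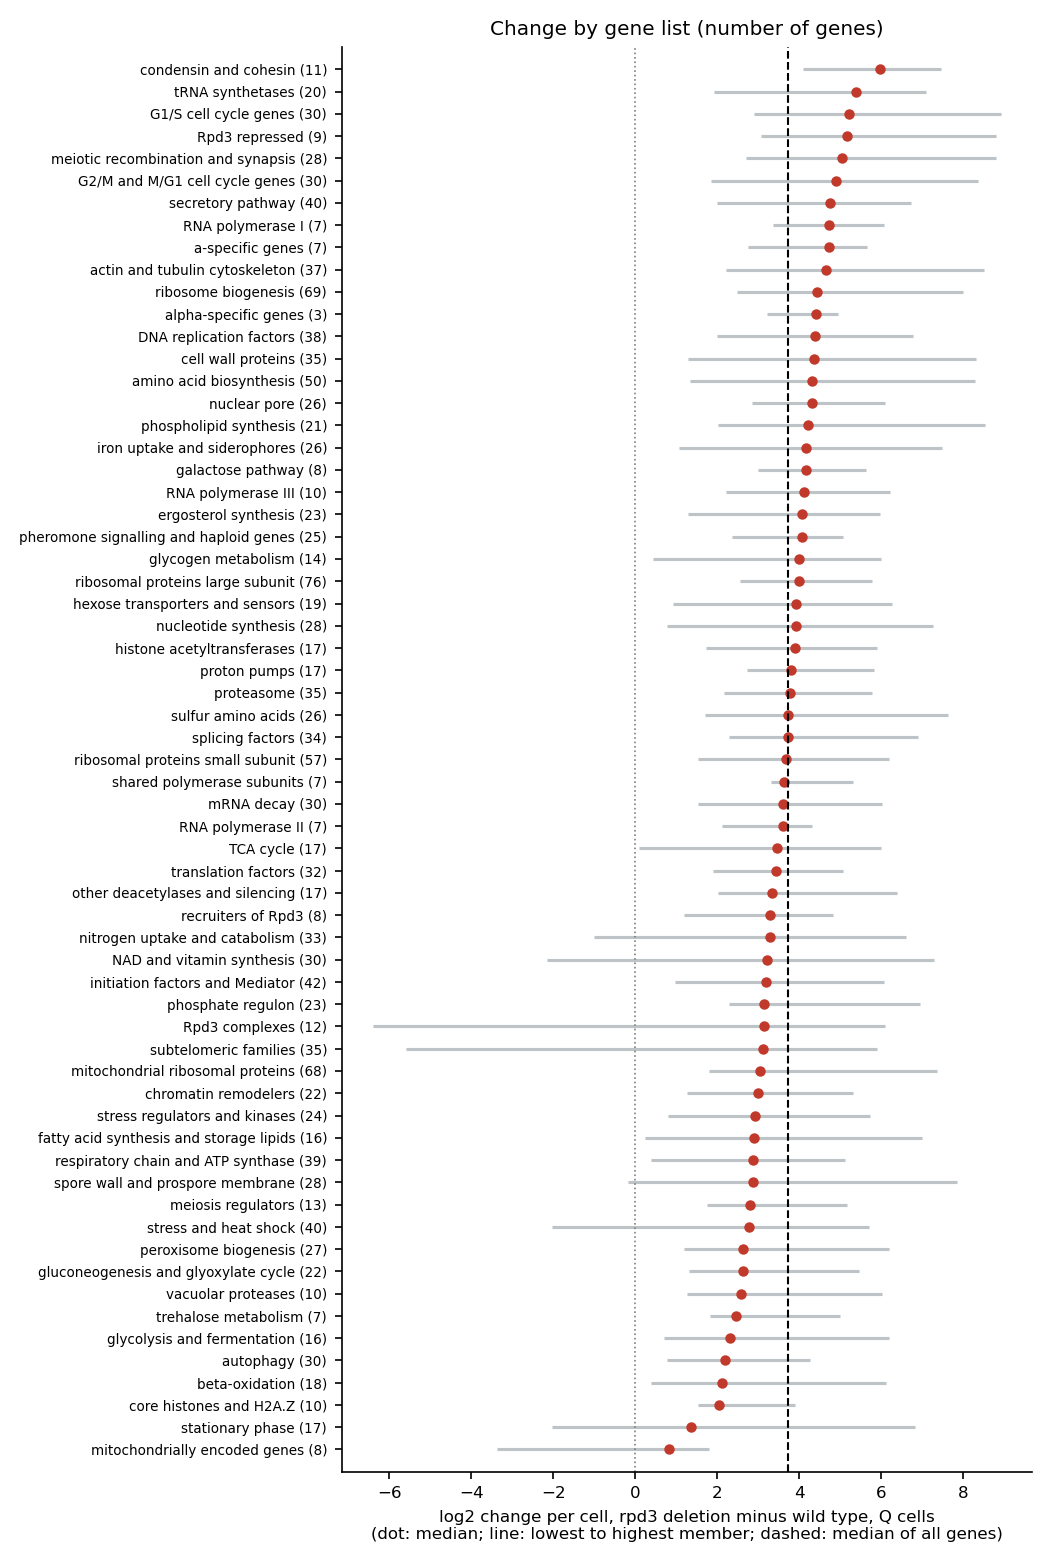
Median log2 change per cell (dot) and its lowest to highest member (line) for 63 gene lists in Q cells, with the number of genes in brackets and the median of all genes as a dashed line. Medians run between 0.83 for mitochondrially encoded genes and 5.98 for condensin and cohesin, all above 0.

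Genes were also ordered by features that do not use the Q columns. In 5 equal bins of the level in wild-type log cells, the median change in Q was 3.54, 3.72, 3.65, 3.79 and 3.88 from the lowest to the highest bin, a span that is small beside the quartiles within a bin. Ordered by how wild-type RNA answered glucose exhaustion (DS minus log), the median change in Q declined over the bins, beginning with the genes that dropped most in wild type, as 4.53, 4.16, 3.72, 3.30 and 2.69. In the lowest of these bins the median level was 22.8 FPKM in rpd3 Q cells and 0.929 FPKM in wild-type Q cells, and in the highest 27.3 FPKM in rpd3 Q cells and 4.38 FPKM in wild-type Q cells. The bins thus differed less in the mutant than in wild type. Genes in the bins were still taken up by their Q values. In the lowest 2 of these bins the wild-type Q median was under 1 FPKM, at 0.929 and 0.936 FPKM. In the lowest bin of log level it was 0.629 FPKM. Many genes in such bins entered only through the mutant, so the medians of both orders are given as a description.

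**Figure D5:**
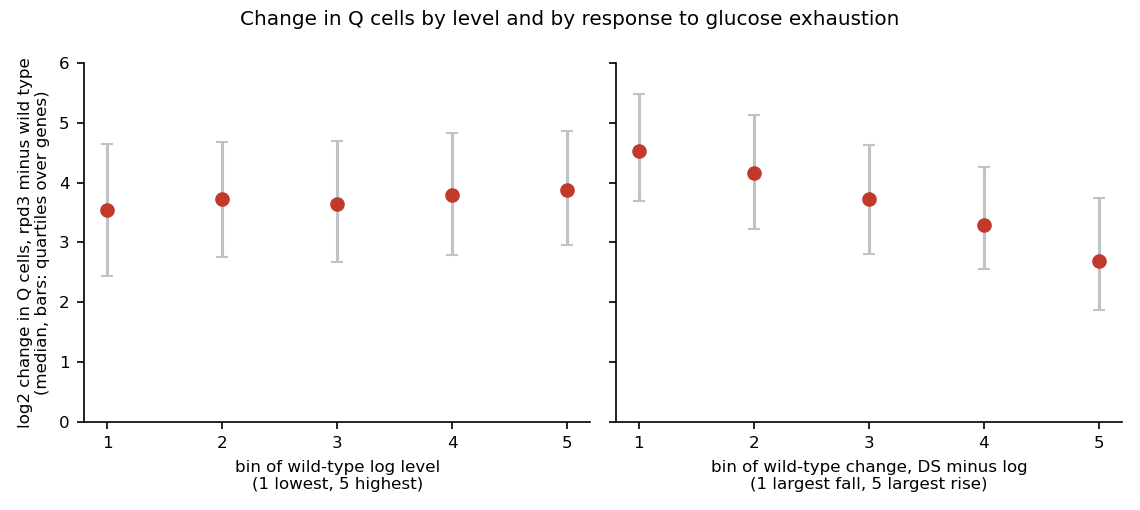
Median log2 change in Q cells (dots, with quartiles over genes as bars) in 5 bins of wild-type log level (left) and of the wild-type change between log and DS (right). The medians stay between 3.54 and 3.88 on the left and go down over the bins on the right, with 4.53 in the lowest and 2.69 in the highest. Genes were taken up by their Q values, which bears unevenly on the bins.

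The genes of the mitochondrial genome stood apart. That genome is not packaged in histones, and whether this bears on their changes was not tested. The 19 genes that RefSeq places there had a median change of 0.12, all 19 were at least 2-fold below the median gene, 5 were lower per cell by 2-fold or more and 4 higher by 2-fold or more. They held 6.30% of the summed FPKM in rpd3 Q cells and 15.8% in wild-type Q cells. OLI1, a subunit of ATP synthase, stood at 7793 FPKM in rpd3 Q cells and 2239.6 FPKM in wild-type Q cells, COX2 at 4119 FPKM in rpd3 Q cells and 1538 FPKM in wild-type Q cells, and COX1 at 2293 FPKM in rpd3 Q cells and 1475.5 FPKM in wild-type Q cells. ATP6 stood at 124.5 FPKM in rpd3 Q cells and 219.6 FPKM in wild-type Q cells, and ATP8, which is cotranscribed with COX1, at 1.53 FPKM in rpd3 Q cells and 16.0 FPKM in wild-type Q cells. COX1, ATP8 and ATP6 lie on a common precursor RNA, so their order of levels is not an order of separate transcripts, and intron-encoded frames such as AI3 and AI5_ALPHA overlap COX1. Leaving out these 19 genes changed the median change of all genes to 3.74 and the number at least 2-fold lower to 22.

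The largest changes belonged to genes close to 0 in wild-type Q cells. At 10 FPKM or more in either column, NNF1, of the kinetochore, stood at 23.3 FPKM in rpd3 Q cells and 0.0417 FPKM in wild-type Q cells, and PNP1, a purine nucleoside phosphorylase, at 34.8 FPKM in rpd3 Q cells and 0.0676 FPKM in wild-type Q cells. HOR2, glycerol phosphatase, stood at 187 FPKM in rpd3 Q cells and 0.497 FPKM in wild-type Q cells, TUB2, beta-tubulin, at 130 FPKM in rpd3 Q cells and 0.356 FPKM in wild-type Q cells, and GDH1, glutamate dehydrogenase, at 140 FPKM in rpd3 Q cells and 0.448 FPKM in wild-type Q cells. The factors rest on small wild-type values whose counting error is unknown, and with a pseudocount of 1 FPKM the changes of TUB2 and HOR2 were 6.59 and 6.98.

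Among genes at or above 10 FPKM in both columns, where the factors rest on more signal, HXT6 and HXT7 had the largest changes. These high-affinity hexose transporters are near-identical copies whose reads the counting may have split. HXT6 stood at 897 FPKM in rpd3 Q cells and 11.7 FPKM in wild-type Q cells, and HXT7 at 934 FPKM in rpd3 Q cells and 13.3 FPKM in wild-type Q cells, although in log cells both had been lower in the mutant by over 2 on the log2 scale. HXT2, another transporter for low glucose, stood at 929 FPKM in rpd3 Q cells and 33.8 FPKM in wild-type Q cells. CUP1-1, a copper metallothionein with a near-identical copy, stood at 911 FPKM in rpd3 Q cells and 38.8 FPKM in wild-type Q cells, and RPL3, of the large ribosomal subunit, at 443 FPKM in rpd3 Q cells and 16.8 FPKM in wild-type Q cells.

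The 27 genes at least 2-fold lower in rpd3 Q cells include RPD3 and 26 others. Of the 25 of these with a DS value in both strains 17 were at least 2-fold lower in the mutant in DS cells too, of the 24 with a log value 11 in log cells, and 10 at all 3 harvests. Of all nuclear genes compared, 258 were among the 10 genes nearest a chromosome end and 5534 lay farther inside. Of the 18 lower genes other than RPD3 that RefSeq places on a nuclear chromosome, 9 are near an end by that limit. The 9 are SEO1, GEX2, ERR1, ERR2, ERR3, HSP32, HSP33, SNO4 and YIR042C. SEO1, a putative permease gene, stood at 0.0400 FPKM in rpd3 Q cells and 1.94 FPKM in wild-type Q cells, and GEX2, a glutathione exchanger, at 0.154 FPKM in rpd3 Q cells and 2.93 FPKM in wild-type Q cells. The ERR genes and the HSP32 family are near-identical copies, so their values are uncertain and they are not separate cases in the count of 9.

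Away from the ends, 2 genes of the pathway from tryptophan to NAD were lower at all 3 harvests. BNA2, its first enzyme, stood at 3.08 FPKM in rpd3 Q cells and 13.6 FPKM in wild-type Q cells, and BNA1 at 1.35 FPKM in rpd3 Q cells and 4.09 FPKM in wild-type Q cells. In log cells BNA2 was lower by 3.39 and BNA1 by 3.56 on the log2 scale, and in DS cells by 3.57 and 4.86. ALD3, a stress-induced aldehyde dehydrogenase, stood at 13.5 FPKM in rpd3 Q cells and 78.8 FPKM in wild-type Q cells. FMP45, a membrane protein of the cell cortex that was lower by less than 2-fold in Q cells, stood at 21.5 FPKM in rpd3 Q cells and 37.2 FPKM in wild-type Q cells, and in DS cells at 39.0 FPKM in rpd3 and 428 FPKM in wild type. Of these 4 genes, ALD3 was within 2-fold of wild type in DS cells, at a change of -0.96.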

How the data were processed

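The table deposited by the authors holds FPKM on a log2 scale. The values were scaled by spike-in RNA to the amount per cell, as the design text of the series states. The submitters' processing notes name CASAVA, TopHat2, SAMtools, Cuffdiff and Cufflinks 2.2.1. No source used here gives the settings, strand counting, genome build or the way isolates were combined. The base of the logarithm was inferred: the wild-type log column, multiplied by length in kilobases, adds up to 1295760 under base 2, against 31190800 under base e.

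Of 6602 named rows, the 4 rows of 2 repeated names were left out. In the rpd3 DS column 108 values at the end repeat the start of the rpd3 Q column, 107 of them exactly, and were left out. A change is a difference of deposited log2 values with no pseudocount, computed with Python 3.11.15 and pandas 2.3.3, and a gene was counted at 2-fold. The counting was tested on simulated data. No depth is known, so no interval is given.

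The genes compared, 63 gene lists and the motifs were chosen with earlier results of these data known. Named by rule were RPD3, all members of 4 lists (Rpd3-repressed, Rpd3 complexes, recruiters, stationary phase), the ends of the other lists with their most abundant genes, the 15 largest and smallest changes at 10 FPKM in either or both Q columns, and genes lower in the mutant. MEI4, SPO16, MER1, RED1 and the abundant and neighbouring genes given for checks were named beside that rule. RefSeq R64 matched 5811 of the genes compared and supplied names, lengths, gene order and upstream sequence.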

Additional observations from a re-analysis of the deposited data

Results flagged for a closer look

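Among genes at or above 10 FPKM in wild-type Q cells, 5 were at least 2-fold lower in the mutant in Q cells and at least 2-fold higher in the mutant at an earlier harvest. In log cells ALD3 was higher in the mutant by 1.03 on the log2 scale, while in Q cells its change was -2.55. GRE1 was higher by 1.24 in log cells and had a change of -2.03 in Q cells, and SIP18 was higher by 1.22 in log cells and had a change of -1.60 in Q cells. In DS cells GRE1 and SIP18 were already lower in the mutant, with changes of -5.22 and -2.17. The mitochondrial frame Q0143 was higher by 1.58 in log cells and had a change of -2.44 in Q cells, and AI5_ALPHA was higher by 1.17 in DS cells and had a change of -1.45 in Q cells. Each value is a single pooled one, and the difference between harvests was not tested.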

How the results depend on the processing

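With 1 value per condition, a median within 1.5-fold and a count within 1.5 times of the reported one was taken as unchanged. The median change of 3.73 was 2.84 with log2(FPKM + 1), 1.26 with log2(FPKM + 10) and 3.001 among genes at 1 FPKM in both columns. The number of genes at least 2-fold higher per cell, 6122, was 3572 among genes at 1 FPKM in both columns. The number at least 2-fold lower, 27, was 8 with log2(FPKM + 10), 15 among genes at 1 FPKM in both columns, 11 among genes at 10 FPKM in either column and 11 at a 4-fold limit. Relative to the median gene, the 1601 higher and 1602 lower genes were 854 and 943 with log2(FPKM + 1), 664 and 222 with log2(FPKM + 10), 664 and 616 among genes at 1 FPKM in both columns, and 3532 and 326 relative to the summed FPKM. The pseudocounts compress low values and the filters test fewer genes. Taking no filter, or leaving out the mitochondrial genome (chosen after the data were seen), left these 5 results within 1.5-fold. Of 18 lists at least 2-fold from the median gene, 1 changed side with log2(FPKM + 1), 10 with log2(FPKM + 10) and, of the 17 with members left, 1 among genes at 1 FPKM in both columns. Read depth is unknown, so how far values under 1 FPKM can be trusted is too. No paired analysis was possible because the table pools the isolates into 1 value per condition, so the table holds no replicate to leave out.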

Other observations

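Other gene classes showed further contrasts in Q cells. The 45 gag-pol frames of the Ty retrotransposons had a median change of 1.99, below the median gene, and the 17 gag frames of 2.36, and their reads are shared between copies. YMR046C, a gag frame that overlaps a gag-pol frame, had a change of 12.1 that is uncertain for that reason, with 112 FPKM in rpd3 Q cells and 0.0250 FPKM in wild-type Q cells. The 258 genes nearest the chromosome ends had a median change of 3.23, with 40 at least 2-fold above the median gene and 89 at least 2-fold below, against 3.76 for the 5534 genes farther inside. Medians by chromosome ran between 3.56 for chromosome IV and 3.92 for chromosome VI. The 2 most abundant RNAs in both columns were NME1 and RPR1, the RNA parts of RNase MRP and RNase P, with 19296 and 11323 FPKM in rpd3 Q cells, against 2387 and 2291 FPKM in wild-type Q cells.

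The labels give no mating type. The 7 genes specific to a cells had a median change of 4.73 and the 3 specific to alpha cells of 4.40. At least 2-fold above the median gene were 3 of the 7 and 1 of the 3, and 5 of the 7 and 2 of the 3 were under 1 FPKM in wild-type Q cells and so entered only through the mutant. STE6, the exporter of a-factor, stood at 13.9 FPKM in rpd3 Q cells and 0.273 FPKM in wild-type Q cells. In log cells the a-specific genes had a median change of -1.58. The 26 iron uptake genes had a median of 4.17, with 10 at least 2-fold above the median gene and 5 at least 2-fold below. Of the 26, 14 were under 1 FPKM in wild-type Q cells and entered only through the mutant. With a pseudocount of 10 FPKM the group lay 0.001 above the median of all genes. SIT1, a siderophore transporter and 1 of the 14, stood at 125 FPKM in rpd3 Q cells and 0.702 FPKM in wild-type Q cells. Of 33 nitrogen genes, 8 were at least 2-fold above the median gene and 12 at least 2-fold below, where all genes had 25.4% on each side. MEP2, an ammonium permease, stood at 40.2 FPKM in rpd3 Q cells and 0.415 FPKM in wild-type Q cells, while DAL80, a repressor of nitrogen genes, stood at 1.26 FPKM in rpd3 Q cells and 2.51 FPKM in wild-type Q cells.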
